A study of Rattus norvegicus with 19 samples.

Results

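The transcripts described here mark Kupffer cells, the resident macrophages of the liver, and macrophages in general. They are Csf1r, Cd163, Cd68, Marco, Clec4f, Vsig4, C1qa, C1qb, C1qc and Cd5l, chosen as known genes of these cells and measured through each probe set that the platform annotation gives 1 of these symbols. Of the 10 genes, 8 had a probe set, out of 14217 genes measured in all. No probe set carried Marco, a scavenger receptor for bacteria and particles, or Vsig4, a receptor for complement fragments, so both were not analysed here. Where a gene had several probe sets, that with the highest mean over all arrays stood for it.

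The study hybridised liver RNA of Wistar Han rats to 19 Affymetrix Rat230_2 arrays. Corn oil, the vehicle, or DE-71, a commercial mixture of brominated diphenyl ethers made as a flame retardant, was given to dams by gavage each day from gestation day 6 to postnatal day 4, when left lateral lobe tissue was taken. All groups shared strain, vehicle and age, and they differed in the DE-71 dose, which was 0 mg/kg in 5 arrays, 0.1 mg/kg in 5 arrays, 15 mg/kg in 4 arrays and 50 mg/kg in 5 arrays. The sex in the labels is female, but whether this is the dam or the animal whose liver was taken is not stated. Whether the arrays of a group stand for different litters is not stated either, so a p-value reflects only the spread among these arrays, which may be technical. The tissue is whole liver, in which fewer macrophages and less RNA per macrophage cannot be told apart.

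Kupffer cells line the liver sinusoids, where they take up aged blood cells, particles and microbes from the portal blood. They settle in the liver before and around birth and live on signals through the CSF1 receptor, while the transcription factors PU.1 and the MAF family are known to drive macrophage genes, and LXR alpha drives part of the Kupffer cell programme. The complement component C1q, which binds antibody and dying cells and starts the classical pathway, is made mainly by macrophages rather than by hepatocytes.

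Hepatocyte transcripts were high on every array, with albumin (Alb) at 15.04 and alpha-fetoprotein (Afp), a fetal and early postnatal liver protein, at 14.61 (mean log2 signal, n = 19). Deposited values ran from 2.4 to 15.06 on the log2 scale, and array medians lay between 6.06 and 6.16. One array stood against its label: Cyp1a1, a cytochrome P450 of the aryl hydrocarbon receptor response, read 14.06 in the array labelled 0.1 mg/kg replicate 1, against 7.19 to 8.42 in the other 4 of its group, 7.10 to 8.36 in vehicle and 13.16 to 14.30 at the higher doses. Array numbers in the labels put 4 of the 5 arrays at 50 mg/kg among the 7 numbered up to 8 (called early here, the other 12 late), whereas each other group has 1 early array. Transcripts of exocrine pancreas (12 measured genes) stood high on 4 arrays and those of skeletal muscle on several others. What the array number stands for is not given in the labels.

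Across the dose groups no macrophage gene passed the test. At 50 mg/kg 7 of the 8 genes had a lower mean than vehicle, by at most 0.27 on the log2 scale (Clec4f), and 0 of 8 passed (limma's moderated test, adjusted p = 0.402 to 0.984, 0 at an unadjusted p under 0.05). Among all probe sets 1.61% passed in that comparison. With arrays centred on their medians 6 of the 8 were lower and after cyclic loess all 8 were. At 15 mg/kg 5 genes were lower and 3 higher, and at 0.1 mg/kg 1 was lower and 7 higher, with 0 of 8 past limma's threshold and 0 at an unadjusted p under 0.05 in both. In each of these comparisons 0% of all probe sets passed. The 8 genes had a median difference of -0.13, -0.09 and 0.05 at 50, 15 and 0.1 mg/kg, against 0.01, 0 and 0.01 over all genes. In 0 of the 8 genes did the groups fail to overlap, at any dose. Over all genes 5.83% did so at 50 mg/kg, 3.36% at 15 mg/kg and 0.134% at 0.1 mg/kg.

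**Figure D1:**
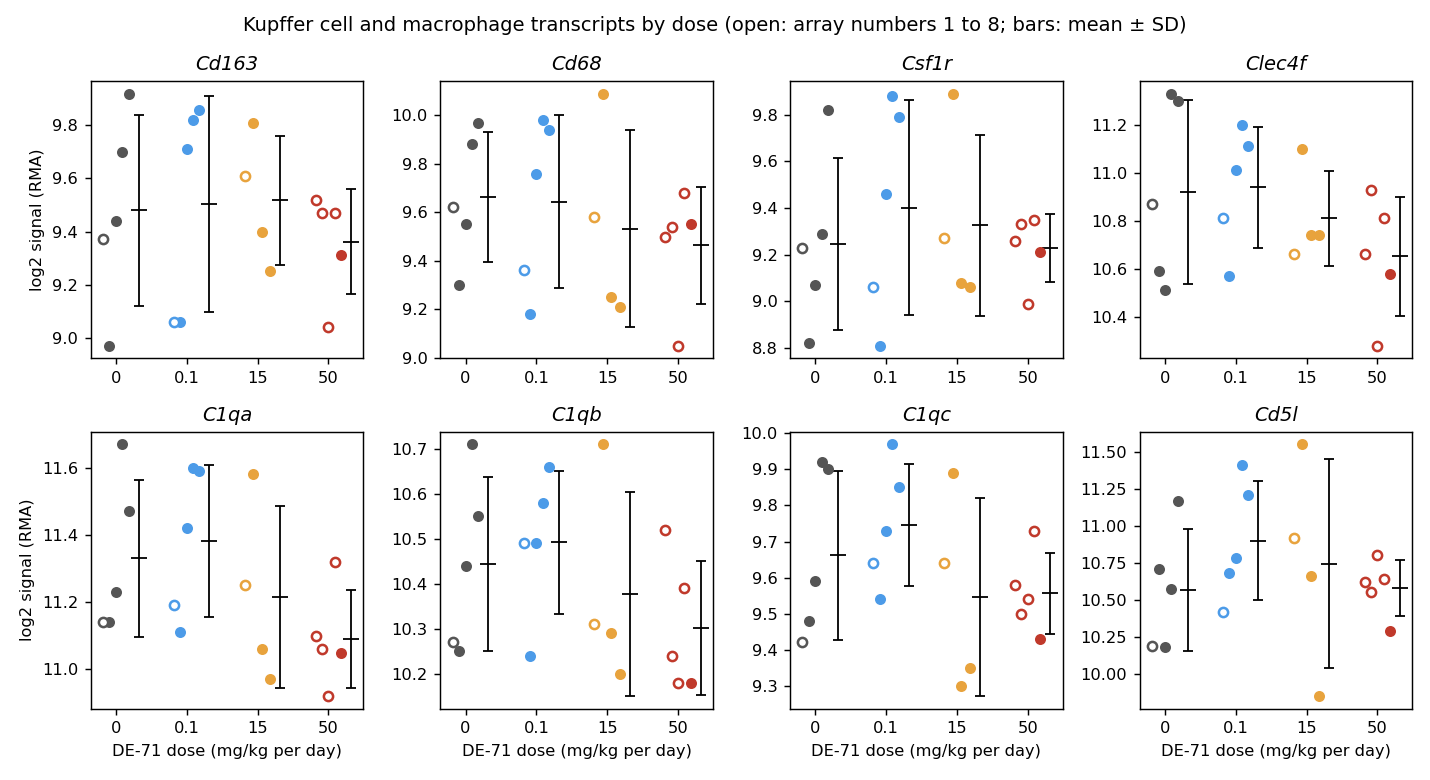
Log2 signal (vertical axis) of the 8 macrophage genes on each array against the DE-71 dose in mg/kg per day (horizontal axis), with open circles for arrays numbered up to 8, filled circles for later ones, and the mean ± SD of each group beside its points. Vehicle, 0.1 and 15 mg/kg arrays spread over much of each panel, and the groups overlap in all 8 genes.

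Csf1r encodes the receptor for CSF1 and IL-34, on which macrophages depend for survival. It read 9.23, 8.82, 9.07, 9.29 and 9.82 in vehicle replicates 1 to 5 and 9.26, 9.33, 8.99, 9.35 and 9.21 in 50 mg/kg replicates 1 to 5 (log2 signal). The 0.1 mg/kg replicates 1 to 5 read 9.06, 8.81, 9.46, 9.88 and 9.79, and the 15 mg/kg replicates 2 to 5 read 9.27, 9.89, 9.08 and 9.06. All 50 mg/kg values lay inside the vehicle range, and the highest value of the other 3 groups was close to the same level. Group means were 9.24 ± 0.368 in vehicle and 9.23 ± 0.145 at 50 mg/kg (SD, n = 5 each), a difference of -0.01 (SE 0.212, 95% interval -0.46 to 0.43, adjusted p = 0.98). At 0.1 and 15 mg/kg Csf1r differed from vehicle by 0.16 and 0.08 (adjusted p = 1 and 0.91).

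The ligands of that receptor did not pass either. Csf1, the main ligand in most tissues, stood at 8.23 in vehicle and 8.66 at 50 mg/kg (difference 0.42, SE 0.111, adjusted p = 0.0623). Il34, the alternative ligand, stood at 5.59 and 5.30 (difference -0.29, SE 0.0869, adjusted p = 0.103). Of 11 measured genes of this receptor's ligands and signalling 0 rose and 0 fell at any dose, with a median difference of -0.04 at 50 mg/kg, where limma's unadjusted p was under 0.05 in 2 of them and in 15.4% of all probe sets. Fyn, a kinase below the receptor, stood at a difference of -0.38 (adjusted p = 0.346).

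Cd163, the scavenger receptor for complexes of haemoglobin with haptoglobin, and Cd68, a lysosomal glycoprotein used to stain macrophages, followed a common pattern. Cd163 read 9.37, 8.97, 9.44, 9.70 and 9.92 in vehicle replicates 1 to 5, and 9.52, 9.47, 9.04, 9.47 and 9.31 at 50 mg/kg. At 0.1 mg/kg it read 9.06, 9.06, 9.71, 9.82 and 9.86, and at 15 mg/kg 9.61, 9.81, 9.40 and 9.25. The lowest vehicle array was below every treated one, and the highest vehicle array above every treated one. Its means were 9.48 ± 0.359 in vehicle and 9.36 ± 0.195 at 50 mg/kg (SD, n = 5 each), which gave -0.12 (SE 0.188, 95% interval -0.51 to 0.28, adjusted p = 0.794). The differences at 0.1 and 15 mg/kg were 0.02 and 0.04 (adjusted p = 1 and 0.954).

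For Cd68 the vehicle replicates 1 to 5 read 9.62, 9.30, 9.55, 9.88 and 9.97, and the 50 mg/kg replicates 9.50, 9.54, 9.05, 9.68 and 9.55. The 0.1 mg/kg replicates 1 to 5 gave 9.36, 9.18, 9.76, 9.98 and 9.94, and 15 mg/kg replicates 2 to 5 gave 9.58, 10.09, 9.25 and 9.21. At 50 mg/kg 1 array lay below all vehicle arrays, replicate 3, and the other 4 lay within the vehicle range. Cd68 averaged 9.66 ± 0.268 in vehicle and 9.47 ± 0.239 at 50 mg/kg (SD, n = 5 each), a difference of -0.20 (SE 0.189, 95% interval -0.59 to 0.20, adjusted p = 0.647). At 0.1 and 15 mg/kg Cd68 differed from vehicle by -0.02 and -0.13 (adjusted p = 1 and 0.831).

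Start-site sequences of Cd68 and Cd163 are shown because the pair moved together closely over arrays, as given further on, while their windows differ in the letters of known macrophage factors. Each runs from 250 bases before to 50 bases after the start site, 5′ to 3′ on the gene's strand, from RefSeq on the build GRCr8. Capitals mark GAGGAA, the purine box that PU.1 binds, or TGCTGA, the core of sites for MAF factors, on either strand. Cd68 lies at chr10:54882392-54882691 on the minus strand and Cd163 at chr4:158770524-158770823 on the plus strand.
Cd68: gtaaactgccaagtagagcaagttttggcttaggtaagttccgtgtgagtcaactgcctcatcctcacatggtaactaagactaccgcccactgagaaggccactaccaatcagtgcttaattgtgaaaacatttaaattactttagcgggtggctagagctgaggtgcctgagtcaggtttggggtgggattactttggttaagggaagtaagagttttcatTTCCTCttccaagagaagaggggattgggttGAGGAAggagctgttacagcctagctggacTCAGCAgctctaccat
Cd163: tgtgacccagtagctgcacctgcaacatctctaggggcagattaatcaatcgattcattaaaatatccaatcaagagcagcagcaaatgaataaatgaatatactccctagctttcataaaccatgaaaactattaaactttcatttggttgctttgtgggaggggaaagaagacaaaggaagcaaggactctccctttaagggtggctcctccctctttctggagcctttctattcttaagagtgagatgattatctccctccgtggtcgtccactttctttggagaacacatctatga
In Cd68 the PU.1 letters occur 2 times and the MAF core 1 time, and TGANTCA, the AP-1 site (not in capitals), 2 times. Cd163 held none of these motifs in this window. Of 33469 rat promoters of the same 300 bases, 27.6% hold GAGGAA, 18.4% TGCTGA and 7.33% TGANTCA on either strand.

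Clec4f, a C-type lectin that in rodents marks Kupffer cells among macrophages, had the largest mean difference of the 8 genes at the top dose. It read 10.87, 10.59, 10.51, 11.33 and 11.30 in vehicle replicates 1 to 5, and 10.66, 10.93, 10.28, 10.81 and 10.58 at 50 mg/kg. At 0.1 mg/kg the values were 10.81, 10.57, 11.01, 11.20 and 11.11, and at 15 mg/kg 10.66, 11.10, 10.74 and 10.74. Vehicle replicates 4 and 5 were higher than every treated array, while the other 3 vehicle arrays lay among the treated ones. Means of 10.92 ± 0.384 in vehicle and 10.65 ± 0.247 at 50 mg/kg (SD, n = 5 each) gave -0.27 (SE 0.17, 95% interval -0.62 to 0.09, adjusted p = 0.472). That interval reaches from 0.649-fold to 1.07-fold. The 0.1 and 15 mg/kg differences were 0.02 and -0.11 (adjusted p = 1 and 0.841).

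C1qa, C1qb and C1qc encode the 3 chains of C1q. C1qa came closest to the threshold of the 8 genes, and 4 of its 5 arrays at 50 mg/kg lay below all 5 vehicle arrays. It read 11.14, 11.14, 11.23, 11.67 and 11.47 in vehicle replicates 1 to 5, against 11.10, 11.06, 10.92, 11.32 and 11.05 at 50 mg/kg. At 0.1 mg/kg it read 11.19, 11.11, 11.42, 11.60 and 11.59, and at 15 mg/kg 11.25, 11.58, 11.06 and 10.97. The groups overlapped through 50 mg/kg replicate 4, which lay between vehicle replicates 3 and 5. With means of 11.33 ± 0.235 and 11.09 ± 0.143 (SD, n = 5 each) the difference was -0.24 (SE 0.134, 95% interval -0.52 to 0.04, unadjusted p = 0.0884, limma's adjusted p = 0.402). Within the early arrays (4 at 50 mg/kg, 1 of vehicle) it was -0.04, and within the late arrays (1 and 4) -0.32.

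The other C1q chains gave smaller differences. C1qb read 10.27, 10.25, 10.44, 10.71 and 10.55 in vehicle replicates 1 to 5 and 10.52, 10.24, 10.18, 10.39 and 10.18 at 50 mg/kg, where 3 arrays lay below all vehicle arrays. C1qc read 9.42, 9.48, 9.59, 9.92 and 9.90 in vehicle and 9.58, 9.50, 9.54, 9.73 and 9.43 at 50 mg/kg, where every array lay inside the vehicle range. At 50 mg/kg C1qb differed by -0.14 (SE 0.113, 95% interval -0.38 to 0.09, adjusted p = 0.572) and C1qc by -0.11 (SE 0.123, 95% interval -0.36 to 0.15, adjusted p = 0.71). C1qa, C1qb and C1qc stood at 0.05, 0.05 and 0.08 at 0.1 mg/kg (adjusted p = 1 each) and at -0.11, -0.07 and -0.12 at 15 mg/kg (adjusted p = 0.785, 0.858 and 0.759). At 0.1 mg/kg C1qb read 10.49, 10.24, 10.49, 10.58 and 10.66 and C1qc 9.64, 9.54, 9.73, 9.97 and 9.85. At 15 mg/kg C1qb read 10.31, 10.71, 10.29 and 10.20 and C1qc 9.64, 9.89, 9.30 and 9.35. In both genes 15 mg/kg replicate 3 was the high array of its group.

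The C1q genes are direct neighbours on rat chromosome 5, in the order C1qb, C1qc, C1qa, and the start-site sequences of the outer pair are shown because these genes varied together over arrays. Capitals mark the PU.1 and MAF letters as above. C1qa lies at chr5:154419884-154420183 and C1qb at chr5:154407778-154408077, both on the minus strand of GRCr8 (RefSeq).
C1qa: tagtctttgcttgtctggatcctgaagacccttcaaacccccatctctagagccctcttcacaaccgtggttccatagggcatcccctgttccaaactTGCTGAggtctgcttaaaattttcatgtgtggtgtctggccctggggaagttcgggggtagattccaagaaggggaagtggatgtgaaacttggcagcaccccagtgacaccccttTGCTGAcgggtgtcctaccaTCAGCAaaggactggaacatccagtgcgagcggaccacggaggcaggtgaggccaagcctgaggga
C1qb: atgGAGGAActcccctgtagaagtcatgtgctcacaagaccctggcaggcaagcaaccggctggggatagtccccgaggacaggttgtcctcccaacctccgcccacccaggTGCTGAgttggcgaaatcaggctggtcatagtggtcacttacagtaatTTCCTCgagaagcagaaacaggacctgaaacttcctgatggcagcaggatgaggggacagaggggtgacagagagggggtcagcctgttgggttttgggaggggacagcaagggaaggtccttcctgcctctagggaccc
C1qa holds the MAF core 3 times and no PU.1 letters, and C1qb holds the PU.1 letters 2 times and the MAF core 1 time. Of the 7 measured genes in the promoter table, 4 hold the PU.1 letters (Cd68, Csf1r, C1qb and Cd5l), against 27.6% of all rat promoters. The MAF core occurs in 4 (Cd68, C1qa, C1qb and Cd5l), against 18.4% of them. Neither motif was found in the windows of Cd163 and Clec4f. Only the first start site listed for a gene was searched, while the shares over all promoters count every entry. All of these are matches of letters, and binding was not measured.

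Cd5l, a secreted scavenger receptor protein also called apoptosis inhibitor of macrophages, varied most between arrays of a group. It read 10.19, 10.71, 10.18, 10.57 and 11.17 in vehicle replicates 1 to 5 and 10.42, 10.68, 10.78, 11.41 and 11.21 at 0.1 mg/kg. At 15 mg/kg it read 10.92, 11.55, 10.66 and 9.85, and at 50 mg/kg 10.62, 10.55, 10.80, 10.64 and 10.29. Both the highest and the lowest of the 19 values were at 15 mg/kg, and the 50 mg/kg arrays stayed within the vehicle range. Its means were 10.57 ± 0.411 in vehicle and 10.58 ± 0.185 at 50 mg/kg (SD, n = 5 each), a difference of 0.01 (SE 0.26, 95% interval -0.53 to 0.56, adjusted p = 0.984). At 0.1 mg/kg the difference was 0.34 (SE 0.26, adjusted p = 1) and at 15 mg/kg 0.18 (SE 0.276, adjusted p = 0.828). Another Cd5l probe set, which ran from 3.89 to 6.21, differed by 0.55 at 0.1 mg/kg, 0.67 at 15 mg/kg and 0.32 at 50 mg/kg (adjusted p = 1, 0.55 and 0.69). Deviations of the pair of probe sets from their group means correlated over the 19 arrays (Pearson's r = 0.85, permutation p = 0.00036, Spearman's rho = 0.84, permutation p = 0.00014, and r = 0.76 without the 2 arrays farthest from the median).

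**Figure D2:**
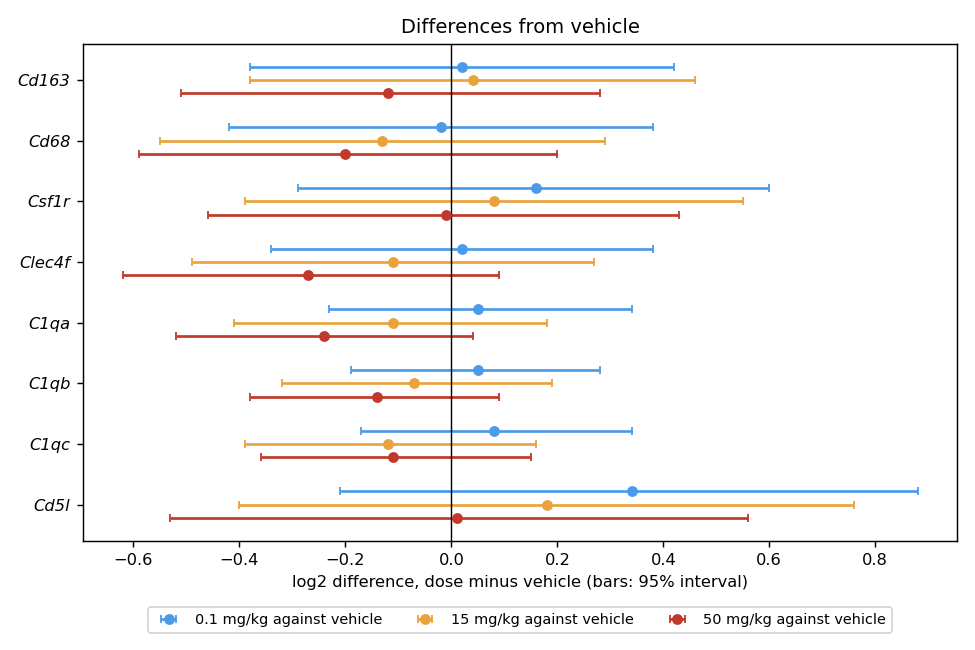
Difference from vehicle in mean log2 signal (horizontal axis) for each of the 8 genes (vertical axis) at 0.1, 15 and 50 mg/kg, as points with 95% intervals from limma's fit. Each interval includes 0, and Cd5l has the widest and C1qb the narrowest of them.

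Tests of the dose groups together and of the doses against each other gave the same count. A moderated F-test over the 4 dose groups passed 0 of 8 genes (0 at an unadjusted p under 0.05), with C1qa lowest in limma's adjusted p at 0.645, where 0.325% of all probe sets passed. Between 50 and 0.1 mg/kg all 8 genes had a lower mean at the higher dose, by 0.14 to 0.32 on the log2 scale with a median of -0.19, and all 8 did so under both other scalings. In that comparison 0 of 8 genes passed (adjusted p = 0.494 to 0.891), 1 had an unadjusted p under 0.05 (C1qa, 0.0404), and 0.293% of all probe sets passed. Between 50 and 15 mg/kg and between 15 and 0.1 mg/kg limma passed 0 of 8 genes, with 0 at an unadjusted p under 0.05, and 0% of all probe sets. The array labelled 0.1 mg/kg replicate 1 had all 8 genes below the mean of its group. Without it the median difference of the 8 genes at 0.1 mg/kg was 0.11 rather than 0.05, and 0 of 8 passed.

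The early and late arrays did not show the same differences at 50 mg/kg. Among early arrays (4 against 1 vehicle array) the median over the 8 genes was 0.01, with 3 lower and 5 higher, from -0.20 for Clec4f to 0.46 for Cd5l. Among late arrays (1 against 4) the median was -0.30, with all 8 lower, from -0.37 for Cd5l to -0.04 for Csf1r. With 1 array in an arm of each, neither part was tested on its own. When a term for early and late arrays was added to the fit, the differences ran from -0.22 for Clec4f to 0.09 for Cd5l, with 0 of 8 past the threshold.

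The spread within dose groups was wide for these genes. Its SD was 0.443 for Cd5l, 0.359 for Csf1r, 0.318 for Cd68, 0.317 for Cd163 and 0.284 for Clec4f, and 0.22, 0.2 and 0.182 for C1qa, C1qc and C1qb, on the log2 scale. Over all genes the median was 0.171. The share of genes with a smaller SD ran from 55.1% for C1qb to 90.9% for Cd5l. Dose groups held 26.1% of the variance of C1qa, 17.6% of C1qc, 17.5% of Clec4f and 16.8% of C1qb. For Cd5l, Cd68, Csf1r and Cd163 the share was 11.2%, 7.73%, 4.64% and 4.59%, against a median of 17.6% over all genes.

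Over the 19 arrays the 8 genes went up and down together. Each value was taken as its deviation from the mean of its dose group, so that a difference between doses adds nothing to a correlation. All 28 pairs correlated positively, with r from 0.48 for Clec4f with Cd5l to 0.94 for Cd68 with Csf1r and a median of 0.80. The permutation test within dose groups passed 28 of 28 pairs by Pearson's r (p adjusted over the 28 pairs at most 0.0449) and 26 by Spearman's rho, which had a median of 0.82. The pairs that rho did not pass were Clec4f with Cd5l (rho 0.48, permutation p = 0.0687) and C1qb with Cd5l (rho 0.51, permutation p = 0.0531). Without the 2 arrays farthest from the median of the first gene, r ran from 0.43 to 0.91 with a median of 0.75. Among the 12 late arrays the median r was 0.87, and the early arrays hold too few of any group but 50 mg/kg for a value of their own. These genes share the arrays and their normalization. Without the array labelled 0.1 mg/kg replicate 1, 27 of the 28 pairs passed and the median r was 0.82.

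The closest pairs were Cd68 with Csf1r and C1qa with C1qc. Cd68 with Csf1r (rho 0.94) had a permutation p of 1e-05, the smallest that 100000 permutations can give, which came to 5.6e-05 adjusted over the pairs. C1qa with C1qc reached r = 0.93, rho = 0.91 and the same p, and Cd68 with C1qa r = 0.92 and rho = 0.93. Cd163 reached r = 0.92 with both Cd68 and Csf1r. The neighbours C1qa and C1qb, whose start sites are printed above, correlated at r = 0.88 and C1qb with C1qc at 0.85, while C1qa lay at 0.85 with Cd163, a gene on another chromosome. No test compared these correlations with each other. Cd5l was the loosest, at 0.48 to 0.76 with the other 7.

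**Figure D3:**
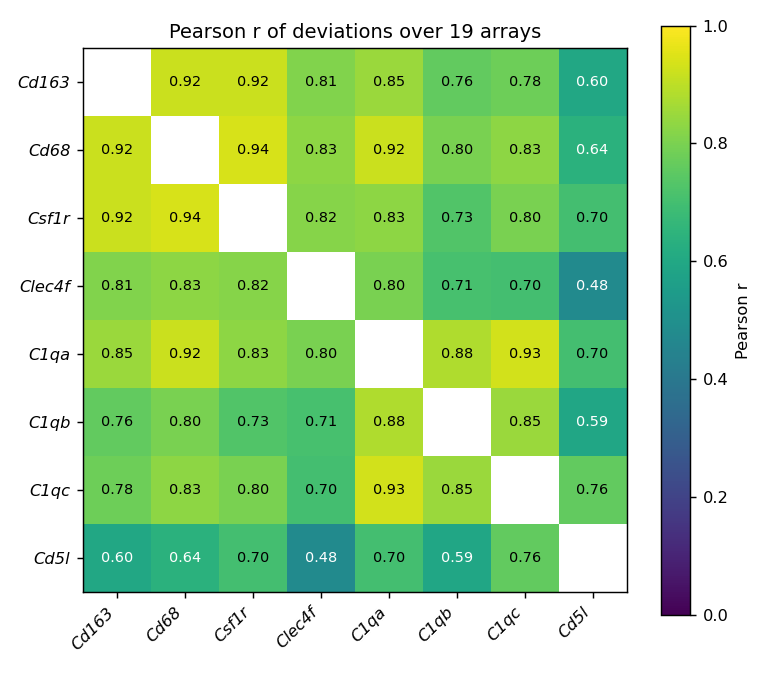
Pearson's r between the deviations of each pair of the 8 genes over 19 arrays, after removing dose group means, with the value in each cell and colour on a scale from 0 to 1. Cd68 with Csf1r (0.94) and C1qa with C1qc (0.93) have the highest values, and the row of Cd5l holds the lowest, 0.48 with Clec4f.

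Against the mean of the other 7 genes, r was 0.94 for Cd68, 0.93 for Csf1r and C1qa, 0.90 for Cd163, 0.89 for C1qc, 0.82 for C1qb, 0.80 for Clec4f and 0.68 for Cd5l. Genes differed in how far they moved for the same shift of the others. Per log2 unit of the mean of the other 7, Csf1r moved by 1.34, Cd5l by 1.21, Cd68 by 1.18 and Cd163 by 1.11 log2 units. Clec4f moved by 0.87, C1qa by 0.77, C1qc by 0.66 and C1qb by 0.55. With the deviations of each gene scaled to the same variance, a first principal component of the 8 genes held 81.2% of the scaled variance.

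The mean of the 8 genes on an array ran from 9.83 on 15 mg/kg replicate 5 to 10.58 on 15 mg/kg replicate 3, a 1.68-fold range inside 1 dose group. Group means of it were 10.16 ± 0.267 in vehicle (SD, n = 5), 10.25 ± 0.292 at 0.1 mg/kg (n = 5), 10.13 ± 0.325 at 15 mg/kg (n = 4) and 10.03 ± 0.127 at 50 mg/kg (n = 5). On 13 of the 19 arrays all 8 genes lay on the same side of their group means. They were all above on vehicle replicates 4 and 5, 0.1 mg/kg replicates 4 and 5, 15 mg/kg replicate 3 and 50 mg/kg replicates 1 and 4. All lay below on vehicle replicates 1 and 3, 0.1 mg/kg replicates 1 and 2, and 15 mg/kg replicates 4 and 5. 15 mg/kg replicate 3 was the highest array of its group in all 8 genes, and 0.1 mg/kg replicate 2 the lowest of its group in 7. Sorted by the mean deviation, which ran from -0.35 to 0.45, the pooled arrays left no gap over 0.099. Pooling groups that are each centred on their own mean cannot show whether arrays cluster within a group. In vehicle replicates 1 to 5 the mean deviations were -0.15, -0.26, -0.16, 0.22 and 0.35. In 0.1 mg/kg replicates 1 to 5 they were -0.25, -0.35, 0.04, 0.30 and 0.25. The 15 mg/kg replicates 2 to 5 gave 0.02, 0.45, -0.16 and -0.30, and the 50 mg/kg replicates 1 to 5 gave 0.07, 0.05, -0.18, 0.14 and -0.08.

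**Figure D4:**
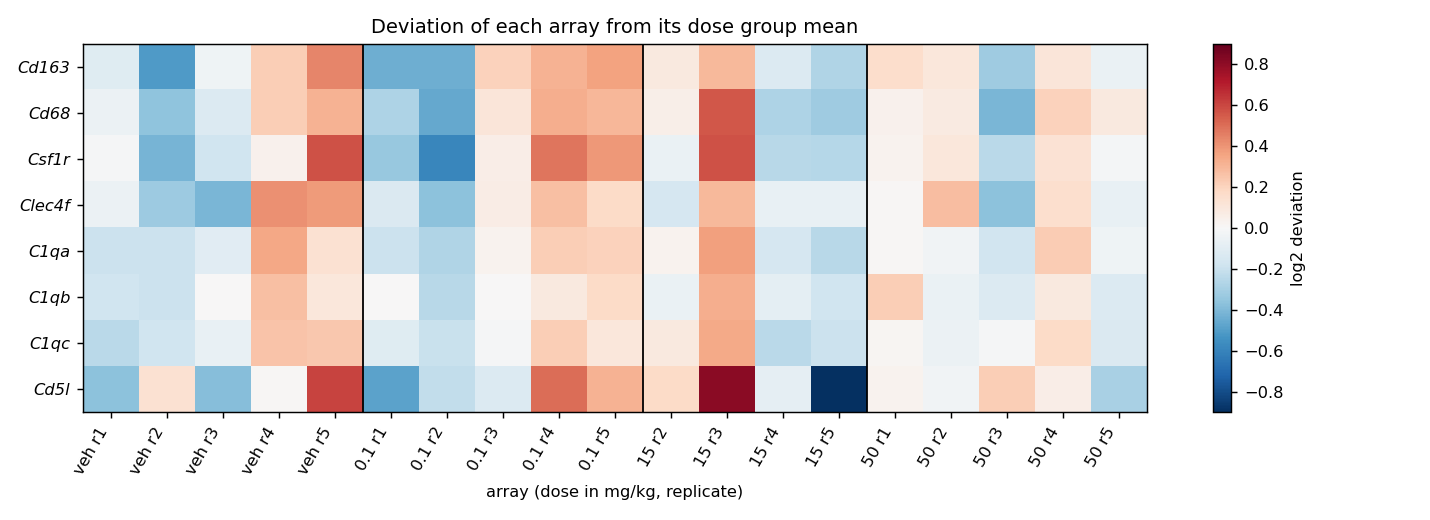
Deviation of each array (columns, by dose group) from its dose group mean in log2 units for the 8 genes (rows), red above and blue below. Whole columns share a colour, such as 15 mg/kg replicate 3 above and 0.1 mg/kg replicate 2 below, and 50 mg/kg columns are paler than those of the other groups.

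Other genes known from these cells followed the 8 genes' mean in part. Of 14209 genes outside them, 1.65% had an r of at least 0.7 with that mean and 0.408% an r of -0.7 or lower, with a median of 0.11. Among 13 measured genes of Kupffer cell identity 7 reached 0.7, among them Adgre1, the F4/80 antigen, at 0.91, Il18bp, which binds interleukin-18, at 0.86, Spic, a transcription factor of red pulp and bone marrow macrophages, at 0.85, Folr2, a folate receptor, at 0.84, and Fcna, a ficolin, at 0.75. Slc40a1, the iron exporter ferroportin, and Mrc1, the mannose receptor, lay at 0.72. The other 6 were Nr1h3 (0.65), Clec1b (0.62), Lyve1 (0.49), Irf7 (0.38), Cxcl16 (-0.20) and Id3 (-0.32), the last pair negative. Of 23 general macrophage genes 12 did so, such as Aif1 (0.91), Fcer1g (0.90), Fcgr1a (0.89), Mpeg1 (0.89) and Laptm5 (0.87). Lysozyme (Lyz2, 0.12), Cd14 (0.38), the factor Maf (-0.19) and the lysosomal protease Lgmn (-0.20) were among the 11 that did not.

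The 6 genes outside the list with the highest r were Gpnmb, Igsf6 and Unc93b1 (0.94 each), Ptafr (0.93), Ptgs1 (0.91) and Adgre1 (0.91), over 19 arrays. Gpnmb encodes a membrane glycoprotein of phagocytes and ran from 9.36 to 10.55. Unc93b1, a chaperone of Toll-like receptors, ran from 8.47 to 9.21, and Ptafr, the receptor for platelet-activating factor, from 8.46 to 9.05. Ptgs1, cyclooxygenase 1, ran from 8.35 to 9.52.

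Functions near these cells varied in how closely they went along. The list means of complement genes outside C1q (28 genes) and of LXR targets (11 genes) correlated with the mean of the 8 genes at r = 0.76 and 0.75 (rho 0.74 and 0.71). Within them, the integrin Itgb2 (0.85) and the anaphylatoxin receptor C5ar1 (0.73), both on leukocytes, and the cholesterol exporter Abcg1 (0.90) reached 0.7, whereas C3, made chiefly by hepatocytes, lay at 0.50. CSF1 receptor ligands and signalling gave r = 0.63 (rho 0.69), and the ligands themselves 0.21 for Csf1 and -0.32 for Il34. Haem and iron handling gave 0.56 (rho 0.55), with haem oxygenase 1 (Hmox1), which breaks down haem in macrophages, at 0.78. Scavenger receptors other than Cd163 gave 0.26 (rho 0.29) and the inflammation list 0.36 (rho 0.32), of which Il1b (0.82), Lgals3 (0.79) and Gpnmb (0.94) reached 0.7.

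Markers of other cells moved with the 8 genes to differing degrees. Sinusoidal endothelium (12 genes), whose cells line the vessels in which Kupffer cells sit, gave r = 0.67 (rho 0.71). Its r was 0.64 without the 2 arrays farthest from the median, and 0.44 without the 4 arrays high in pancreas transcripts. Single genes of the list had a median r of 0.51, from 0.11 for Tie1 and 0.13 for Pecam1 to 0.70 for Stab2 and 0.72 for Dnase1l3. Lyve1 and Fcgr2b of this list also stand in the lists of Kupffer cell identity and general macrophage genes. Hepatocyte markers gave 0.37, erythroid 0.18 and neutrophil 0.02, while dendritic cell markers gave 0.58, T and NK cell 0.52 (rho 0.33) and megakaryocyte 0.41. List means of dendritic cell (5.40 to 5.95) and of T and NK cell (4.60 to 5.11) lay below every array median. Stellate cell gave -0.44, with Acta2 at -0.74 and Dcn at -0.59 but Lrat, Reln and Colec11 at 0.56 each. B cell gave -0.17, with Cd22 at 0.71, Cd79b at 0.49 and Ms4a1 at 0.48 but Ebf1 at -0.67 and Blnk at -0.43. Bile duct gave -0.60 (rho -0.34), and -0.14 without the 4 arrays high in pancreas transcripts.

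Exocrine pancreas gave r = -0.49 (rho -0.46) and skeletal muscle -0.15 (rho -0.11). The mean of the 12 pancreas genes was 8.62 and 7.41 in vehicle replicates 2 and 4, 8.64 in 0.1 mg/kg replicate 2 and 8.07 in 15 mg/kg replicate 5, against a median of 5.07 over all arrays and 4.90 to 5.05 at 50 mg/kg. Of those 4 arrays, 3 were the low arrays of their groups in most of the 8 genes, and vehicle replicate 4 lay above its group mean in all 8. Skeletal muscle means (13 genes) ran from 4.27 to 10.92 in vehicle and from 4.36 to 9.28 at 50 mg/kg. Without the 4 pancreas-high arrays 26 of 28 pairs of the 8 genes passed and the median r was 0.78, a choice of arrays made after seeing the data. The part of the pancreas transcripts in the levels of single arrays was not tested.

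**Figure D5:**
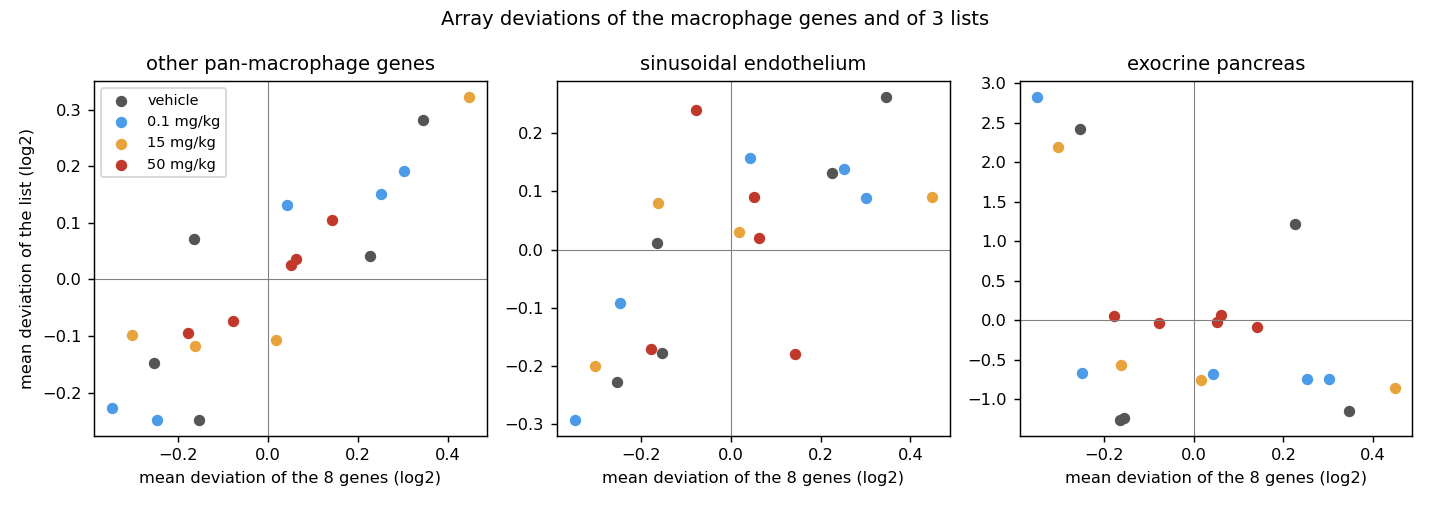
Mean deviation from the dose group mean (log2) of general macrophage genes, sinusoidal endothelium markers and exocrine pancreas markers (vertical axes) against that of the 8 genes (horizontal axes), 1 point per array, coloured by dose group. General macrophage genes go along with the 8 genes (r = 0.89), endothelium less closely (r = 0.67), and 4 arrays stand high in pancreas markers.

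The mean of the 8 genes correlated with the array number at r = 0.38 over all arrays (rho = 0.36) and 0.54 among late arrays. By dose group it was 0.92 in vehicle (n = 5) and 0.76 at 0.1 mg/kg (n = 5) against -0.41 at 15 mg/kg (n = 4) and -0.34 at 50 mg/kg (n = 5). These are descriptions of 4 or 5 arrays each, with no test. The part of the array number in the levels of the 8 genes at 50 mg/kg, a group that is mostly early, was not tested beyond the fits given here.

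In the lists around these genes few members passed at any dose. At 50 mg/kg 0 of 13 other Kupffer cell genes, 0 of 23 general macrophage genes, 0 of 28 complement genes, 0 of 11 LXR targets and 0 of 23 genes of monocyte recruitment and inflammation passed limma's test, with median differences of -0.02, -0.07, 0.12, -0.03 and 0.10. At an unadjusted p under 0.05 were 2, 2, 8, 4 and 7 of them, where 15.4% of all probe sets were. The largest differences among Kupffer cell genes were Nr1h3, which encodes LXR alpha (0.58, adjusted p = 0.136), the interferon regulatory factor Irf7 (0.54, adjusted p = 0.0533) and Fcna (-0.32, adjusted p = 0.341). For general macrophage genes they were Cd14 (0.46, adjusted p = 0.277), Lyz2 (-0.43, adjusted p = 0.234) and Coro1a (-0.42, adjusted p = 0.382). Lipoprotein lipase (Lpl) among the LXR targets stood at 0.80 (adjusted p = 0.0805) and the phospholipid transfer protein Pltp at -0.55 (adjusted p = 0.125). The chemokines Ccl2 and Cxcl10 stood at 0.73 and 0.70 (adjusted p = 0.221 and 0.137) and Ptgs2, the inducible cyclooxygenase, at -0.65 (adjusted p = 0.778). Of the terminal complement components, C9, C6 and C8b stood at 0.48, 0.44 and -0.42 (adjusted p = 0.225, 0.402 and 0.555).

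Of the 240 measured genes of all pathway and cell type lists, 3 passed at 50 mg/kg and 40 had an unadjusted p under 0.05, against 1.61% and 15.4% of all probe sets, so both counts lie near the background share. Nfe2l2, the oxidative stress regulator NRF2, listed with haem handling, rose from 10.47 to 11.34 (0.88, SE 0.154, adjusted p = 0.00817). Scarb2, a lysosomal membrane protein listed with the scavenger receptors, rose from 8.54 to 9.41 (0.87, SE 0.131, adjusted p = 0.00294). Camp, an antimicrobial peptide of neutrophils, fell from 10.93 to 9.99 (-0.94, SE 0.229, adjusted p = 0.0457). With any 1 of the 10 arrays of these groups removed, Camp passed 1 time, when vehicle replicate 1 was the one removed (adjusted p = 0.00512), and otherwise lay between 0.0623 and 0.112, while Nfe2l2 and Scarb2 passed all 10 times. A term for early and late arrays ended the calls of Nfe2l2 (0.71, adjusted p = 0.0791) and Camp (-0.74, adjusted p = 0.245). With the mean of the 8 genes over arrays, r was -0.10 for Nfe2l2, 0.39 for Scarb2 and 0.11 for Camp. Hmox1, a target of NRF2, stood at -0.38 (SE 0.134, adjusted p = 0.168) and biliverdin reductase B (Blvrb) at 0.38 (adjusted p = 0.36). Of the other scavenger receptors, Olr1 and Ager stood at -0.30 and -0.22 (adjusted p = 0.386 and 0.126). At 15 and 0.1 mg/kg limma passed 0 of the 240, with 16 and 4 at an unadjusted p under 0.05, against 9.93% and 2.46% of all probe sets.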

How the data were processed

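The deposited values are log2 signals, which the authors made with RMA (background correction, quantile normalization and probe summary), per the submitters' processing notes. RMA had a version not given in the sources used here. Of 31099 probe sets 57 controls were left out and 31042 tested. The platform annotation gave 20826 of them 1 symbol, 436 several and 9780 none, and 20758 symbols were updated through gene IDs. Limma 3.58.1 in R 4.3.3 fitted 1 mean per dose group over all 19 arrays (lmFit and eBayes, 15 residual and 2.78 prior degrees of freedom), in place of the R/maanova package that the series names. Tests were two-sided. P-values were adjusted by Benjamini and Hochberg's method across the 31042 probe sets, with 0.05 as the threshold. The number of arrays limits the precision.

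Correlations used deviations from dose group means, with 100000 permutations of arrays within groups and adjustment over 28 pairs. Correlations of list means with the mean of the 8 genes had the same permutation test. Of 12 cell type lists 1 passed, sinusoidal endothelium (permutation p adjusted over these lists 0.0497). Dendritic cell, T and NK cell and bile duct did not (0.135 each). Endothelium did not pass after cyclic loess (0.118) or without the 4 arrays high in pancreas transcripts (0.612). The correlations of single genes outside the 8 with that mean are given as descriptions, without p. Genes and lists were chosen with earlier results of these data known. The text names all 8 genes, up to 3 genes per pathway list with the largest difference at 50 mg/kg, every called list gene, and the 6 genes closest to the mean of the 8. Other genes of a list are named for their r, and those were chosen after their values were seen. Alternatives were a filter on low values, other variance priors, fits of the 2 compared groups, a replicate block, the array number, early and late arrays, median centring, cyclic loess, array weights, mean probe sets, tissue scores, and leaving out each array. The fit and the permutation test were tested on simulated data with independent normal noise. Those data held no shifts shared by the genes of an array, so they do not cover such shifts.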

Additional observations from a re-analysis of the deposited data

Results flagged for a closer look

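Of 36 sets of values examined for a single outlying array (each probe set in each dose group), 1 held such an array, and chance flags about 1 in 20. Cd68 read 9.05 in 50 mg/kg replicate 3, apart from the 9.50 to 9.68 of the other 4 arrays, a gap of 0.72 of the group's range. On that array Cd5l was the highest of its group.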

How the results depend on the processing

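In 31 alternatives none of the 744 fitted differences of the 8 genes from vehicle passed limma's threshold, the smallest adjusted p being 0.19 (C1qa at 50 mg/kg with array weights, 0.19 to 0.681 over the alternatives and -0.35 to -0.15 in size). Cd68, Clec4f, C1qa, C1qb and C1qc kept a lower mean at 50 mg/kg in all 31, Cd163 in 30, and the near-zero differences of Csf1r and Cd5l kept their sign in 24. The median of the 8 genes at 50 mg/kg was -0.27 with muscle and pancreas scores, -0.24 with array weights, -0.06 with a general macrophage score and -0.07 without vehicle replicate 4. With a replicate block 0 of 8 genes passed at each dose. Over all pairs of groups, deviations of same-numbered arrays correlated at -0.53 to 0.89 with a median of 0.04. Own numbers correlated best in 13 of 54 cases. Between vehicle and 0.1 mg/kg, replicates 1 to 5 gave 0.05, 0.89, 0.32, 0.36 and 0.26. Between vehicle and 50 mg/kg they gave -0.36, -0.10, -0.53, 0.50 and -0.04. The replicate numbers thus did not pair all groups alike, and whether they pair vehicle with 0.1 mg/kg was not tested. Of the 28 pairs 22 passed with early and late means removed as well (median r 0.85), 27 after cyclic loess, and 25 to 28 with an array left out. The relation to sinusoidal endothelium was r = 0.44 without the 4 arrays high in pancreas transcripts, chosen after seeing the data, and 0.60 to 0.77 with an array left out. Over all probe sets the 499 calls at 50 mg/kg became 57 with the early and late block, 171 with the array number, 263 with muscle and pancreas scores, 921 with array weights, 237, 253, 259 and 222 without vehicle replicates 1, 2, 4 and 5, and 178, 301, 330 and 230 without 50 mg/kg replicates 1, 2, 3 and 4. At 15 mg/kg up to 13 passed. The cause was not tested. Arrays limit what can be seen: what the 95% intervals at 50 mg/kg leave in range differs by gene, from -0.36 to 0.15 for C1qc and -0.38 to 0.09 for C1qb to -0.53 to 0.56 for Cd5l.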
